A study of Mus musculus with 4 samples.

Results

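Pdzd2 encodes a large protein with several PDZ domains, modules that bind the tails of other proteins and hold them in complexes. In mouse embryonic stem cells its gene lay under a set of nested chromatin loops: an anchor at its 3′ end, an anchor inside an intron and an anchor upstream of its start contacted each other pairwise. The interval described here held all pairs of 6.4-kb bins that lay wholly between 12288001 and 12742400 on chromosome 15 (mm9), 2556 bin pairs over 71 bins. These were 2556 of the 104196 bin pairs of the captured region of chromosome 15 and of the 930930 pairs over all 1364 captured bins. The interval and its 3 anchors were chosen from the contact values themselves, in these same 4 libraries. The values below therefore describe the loops, and no test was made of whether the loops exist. Outside the interval, the adjoining bin on the 3′ side had insulation of -0.38, -0.42, -0.32 and 0.15 for 1A2, 1F4, 1B1 and cohesin-degraded 1B1, against -0.44, -0.47, -0.38 and 0.13 in the first bin inside. On the upstream side the last bin inside had -0.95, -0.98, -0.92 and -0.36 and the adjoining bin outside -0.89, -0.92, -0.86 and -0.27.

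Tiled Capture-C, in which ligated fragments of cross-linked chromatin are enriched with oligonucleotides that tile chosen regions, was performed on 4 libraries from 3 clones of E14 embryonic stem cells. All clones carried a TetO and a LacO operator array on 1 allele of chromosome 15, in a topologically associating domain (TAD) outside the interval from which internal CTCF sites had been removed earlier. They expressed TetR-tdTomato and LacI-eGFP, and both alleles of Rad21, a subunit of cohesin, were fused to HaloTag-FKBP. In clone 1B1 a cassette of 3 CTCF sites (3xCTCF) stood beside each array and the resistance promoters had been removed. In clone 1A2 the cassettes and the promoters were both absent, and in clone 1F4 the cassettes were absent but the promoters of the resistance genes were kept. The treated library came from 1B1 cells exposed to 500 nM dTAG-13, which directs FKBP fusions to degradation, for 2 h; the other 3 libraries were untreated. Each line was 1 clone and each group 1 library. Between the untreated lines, clone and genotype cannot be told apart, and between treated and untreated 1B1, which share a clone, treatment and library cannot. The errors given are counting errors from the reads alone. Differences between cultures or captures were not measured, and no p-value is given.

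Cohesin is a ring-shaped complex that reels in chromatin and enlarges a loop until it dissociates or meets a barrier. The main barrier in mammals is CTCF, a zinc-finger protein that stops cohesin when its motif points into the loop, so that loops usually join motifs pointing towards each other. A loop appears in a contact map as a spot of high contact between 2 anchors, a stripe as a line of contact running from 1 anchor, and a boundary as a dip in the contacts that cross it.

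The 3′ anchor bin (chr15:12288001-12294400) held exons of Pdzd2 with coding sequence and untranslated region. Pdzd2 itself runs on the minus strand from 12669679 down to 12286809, a span of 382.9 kb. The mid-gene anchor bin (chr15:12505601-12512000) lay in an intron of Pdzd2 and overlapped the end of Gm2606, a small predicted gene of 1.253 kb on the plus strand. The upstream anchor bin (chr15:12736001-12742400) lay outside Pdzd2, in the 3′ part of 6030458C11Rik, a RIKEN gene on the minus strand. Its centre was 69.5 kb from the start at 12669679, which 2 annotated transcripts share. The transcript with most exons, 24, started at 12522311, only 13.5 kb from the centre of the mid-gene anchor, and a short transcript of 10.5 kb started 20.0 kb from it. The nearest annotated start of a protein-coding transcript to the 3′ anchor was one of Golph3, which encodes a Golgi protein that binds phosphoinositides, 39.8 kb away. The anchors were spaced by 217.6 kb from 3′ end to mid-gene and 230.4 kb from mid-gene to upstream, 448 kb in all.

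The sequences shown are those around the anchors that resemble the motif of CTCF, read from NCBIM37 (mm9), 5′ to 3′ on the strand given, with the matching 12 letters in capitals. No match to the fixed letters CCNNNAGGNGGC lay on either strand in the 3 bins centred on any anchor, and 147 of all 454 windows of 3 bins in the region (32.4%) held one. No match to the stricter CCANNAGGNGGC lay there either, against 15.9% of all windows. The 12-letter core consensus of CTCF, which allows a choice of bases at 4 places, was searched after these counts were known, and over 5 bins centred on each anchor in place of 3. It was matched in full 10 times in the captured region of chromosome 15, in 9 of 456 bins (1.97%). Of these 10 matches, 1 lay 2 bins from the 3′ anchor and 1 in the mid-gene anchor bin itself, both on the plus strand and both in introns of Pdzd2. The one near the 3′ anchor also matches both fixed-letter motifs and lay outside the 3 bins searched for them. No full match lay within 2 bins of the upstream anchor, where 3 sequences matched with 1 mismatch, 2 of them on the minus strand. Full matches lay in 9.51% of all windows of 5 bins, and matches with at most 1 mismatch in 92.5%, so the upstream sequences are of a common kind. A match is a likeness of letters and does not show that CTCF was bound.
3′ anchor, full match, chr15:12301063-12301092, plus strand: agcttttcaCCAGCAGGTGGCaccgcttgc
mid-gene anchor, full match, chr15:12508171-12508200, plus strand: cctcagaggCCAGTAGAGGGCgctggatcc
upstream anchor, 1 mismatch, chr15:12742626-12742655, minus strand: tgccagcacCCACGAGATGGCctacagcca
upstream anchor, 1 mismatch, chr15:12746164-12746193, minus strand: ggggggcgcCCAGTTGGTGGCattgtttgg
upstream anchor, 1 mismatch, chr15:12754966-12754995, plus strand: gctcttcatCCAGCAGGAGGCcgggctgca
The plus strand points from the 3′ end of Pdzd2 towards its start, since the gene is on the minus strand. The full matches at the 3′ and mid-gene anchors therefore pointed the same way, towards the start of Pdzd2. With at most 1 mismatch, matches within 2 bins lay on both strands at every anchor, 3 plus and 2 minus at the 3′ anchor, 4 plus and 3 minus in mid-gene and 1 plus and 2 minus upstream, so no direction is read from those with a mismatch.

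The libraries held 3214144 (1A2), 4089968 (1F4), 3234581 (1B1) and 3622612 (cohesin-degraded 1B1) reads. Of the reads on chromosome 15, between 14.1% and 14.6% fell in the interval in all 4 libraries, 171929 to 228298 reads per library. Every bin pair of the interval had a read in 1A2 and 1F4, and 2555 and 2552 of 2556 had one in 1B1 and cohesin-degraded 1B1.

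**Figure D1:**
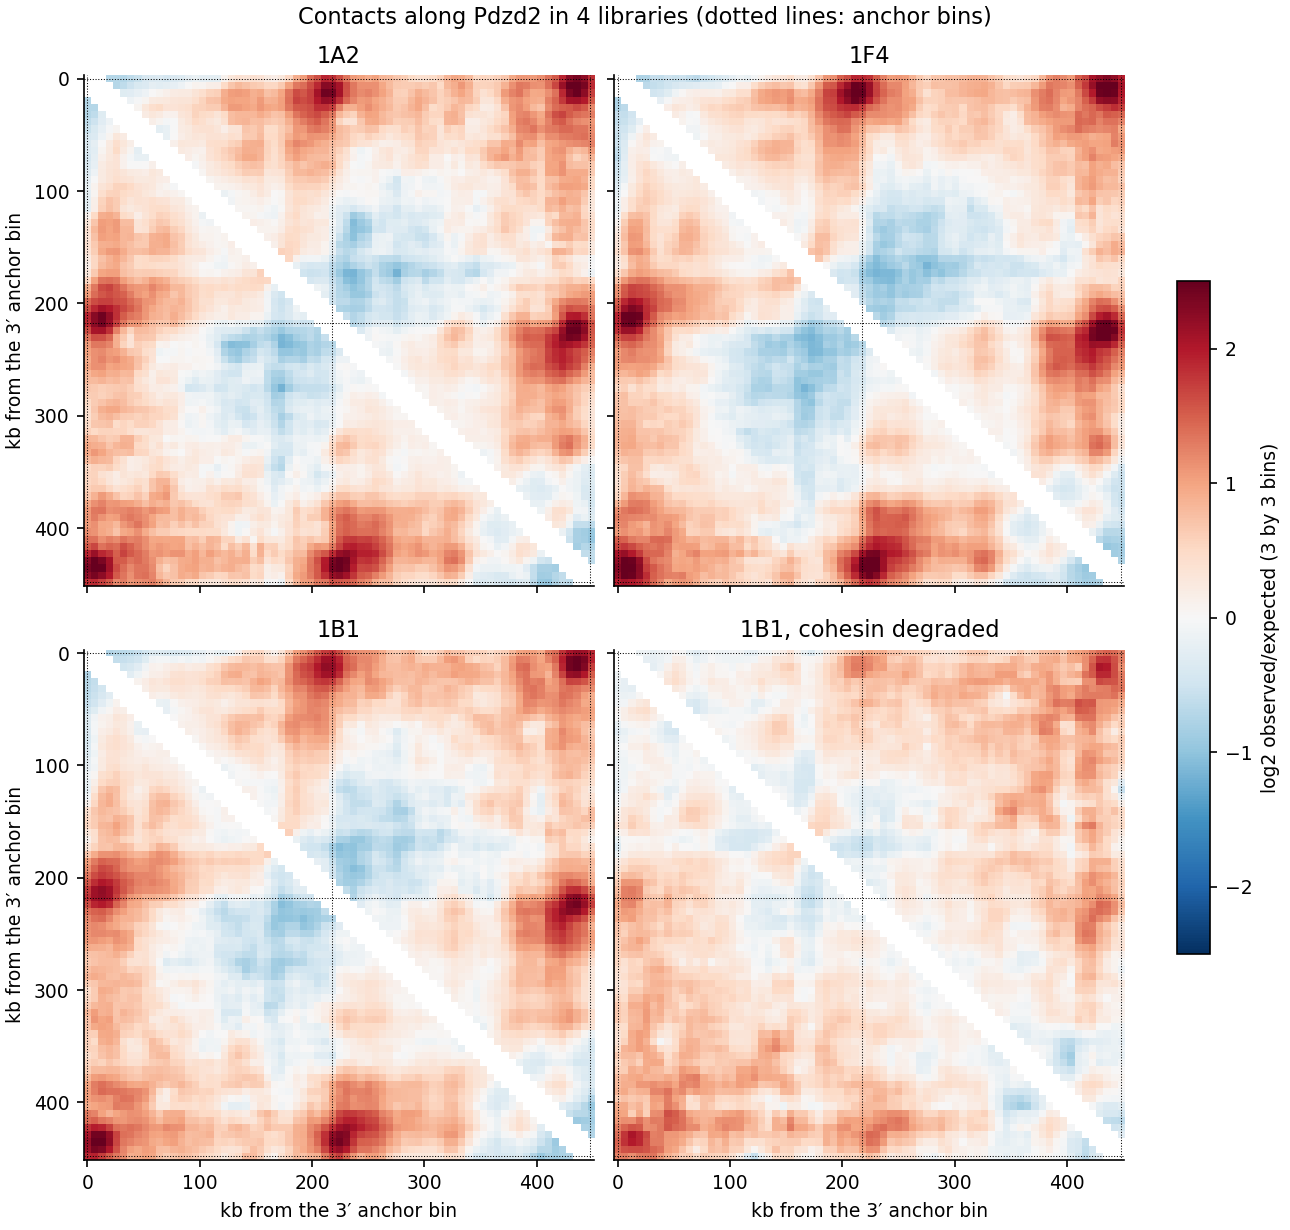
Observed over expected contact (log2, windows of 3 by 3 bins) for all bin pairs of the interval at least 3 bins apart, in 1A2, 1F4, 1B1 and cohesin-degraded 1B1. Axes give distance in kb from the 3′ anchor bin, and dotted lines mark the anchors at 0, 217.6 and 448 kb. The 3 untreated libraries show 3 dark spots where the anchors meet, and the treated library shows its strongest spot at the far corner, with 4.12 times the expected contact at its centre.

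Contact between anchors was measured as the mean over 3 by 3 bins of observed over expected contact, the expected value being the mean of all bin pairs of the chromosome 15 region at the same separation in the same library. Higher or lower contact below is on this relative scale unless another is named, and contact decayed more steeply with distance in the treated library. The 3′ and mid-gene anchors contacted each other at 3.59 ± 0.19 times the expected rate in 1A2, 3.69 ± 0.17 times in 1F4 and 3.48 ± 0.17 times in 1B1 (392, 499 and 427 reads). With cohesin degraded the value was 1.82 ± 0.16 on 142 reads. The untreated clones lay within counting error of each other, and the treated library lay apart from all 3. The anchor pairs were chosen for high contact in these same libraries, so their ranks among other windows are not given.

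The mid-gene and upstream anchors contacted each other at 2.97 ± 0.20 times the expected rate in 1A2, 3.27 ± 0.19 times in 1F4 and 3.00 ± 0.19 times in 1B1 (267, 368 and 302 reads). With cohesin degraded the value was 1.51 ± 0.16 on 96 reads.

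The outer loop, from the 3′ end to the upstream anchor, spanned nearly all of the gene, whose 3′ end lies just outside the 3′ anchor bin. Its contact was 3.53 ± 0.25 times the expected value in 1A2, 3.90 ± 0.23 for 1F4 and 3.70 ± 0.24 for 1B1 (237, 310 and 253 reads), and 2.40 ± 0.24 on 114 reads with cohesin degraded. The treated value was the lowest of the 4. Of the 3 anchor contacts the outer pair had the largest treated value.

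Against its untreated parent, the cohesin-degraded library had lower contact at all 3 pairs. The log2 ratio was -0.94 ± 0.14 for the 3′ to mid-gene pair, -0.99 ± 0.18 for the mid-gene to upstream pair and -0.63 ± 0.17 for the outer pair, which are 1.92-fold, 1.99-fold and 1.54-fold lower. Without division by the expected value, as a share of the balanced contact of the region, the log2 ratios were -1.60 ± 0.14, -1.63 ± 0.18 and -1.26 ± 0.17. Other windows at the same separations had median log2 ratios of 0.05, 0.05 and -0.0040, with SDs of 0.51, 0.55 and 0.70. The anchor pairs were chosen for high contact in these same maps, which favours a lower treated ratio there, so nothing is read from their place among other windows. Against 1A2 the log2 ratios were -0.98 ± 0.14, -0.98 ± 0.18 and -0.56 ± 0.18, and against 1F4 -1.02 ± 0.14, -1.11 ± 0.18 and -0.70 ± 0.17. These comparisons share the treated library.

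The 3 untreated clones differed little at the anchors. The log2 ratio of 1B1 over 1A2 was -0.04 ± 0.10, 0.01 ± 0.13 and 0.07 ± 0.14 for the 3 pairs in the same order, that of 1B1 over 1F4 -0.09 ± 0.10, -0.13 ± 0.12 and -0.08 ± 0.13, and that of 1F4 over 1A2 0.04 ± 0.10, 0.14 ± 0.13 and 0.14 ± 0.13. No value was larger than 1.96 times its counting error.

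A spot differs from a generally rich surrounding. The window was therefore also divided by the ring around it, from 5 by 5 to 11 by 11 bins. At the 3′ to mid-gene pair the window exceeded its ring 1.63 ± 0.08 times in 1A2, 1.62 ± 0.07 times in 1F4 and 1.58 ± 0.08 times in 1B1, and 1.21 ± 0.10 times with cohesin degraded. At the mid-gene to upstream pair the values were 1.33 ± 0.09, 1.44 ± 0.08, 1.39 ± 0.09 and 0.998 ± 0.109. At the outer pair they were 1.31 ± 0.09, 1.40 ± 0.08, 1.43 ± 0.09 and 1.04 ± 0.10. In the treated library the contact at the upstream anchor bin was thus no higher than around it, and the 2.40 of the outer pair lay in a ring of 2.31.

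The centres of the spots lay beside the anchor bins. In the mean of the 3 untreated libraries the highest window within 4 bins of each pair lay inwards of the outer anchors. The 3′ end took part 2 bins inwards in the loop to the mid-gene anchor (chr15:12300801-12307200) and 1 bin inwards in the outer loop (chr15:12294401-12300800). The upstream anchor took part 2 bins inwards in both of its loops (chr15:12723201-12729600). The mid-gene anchor took part on either side of its bin: 1 bin towards the 3′ end in the loop to the 3′ end (chr15:12499201-12505600) and 1 bin towards the start in the loop to the upstream anchor (chr15:12512001-12518400). Of the sequences shown, the full match of the 3′ anchor lay in the centre bin of the first loop. The full match in mid-gene lay in neither centre bin, but the 3 by 3 windows around both centres include the bin that holds it. The sequences shown for the upstream anchor lay on the far side of the anchor from its centre bin. Each untreated library alone had its maximum at these same windows. The treated library had the same position for the first loop, and positions 1 bin away for the upstream anchor in the other 2 and for the 3′ end in the outer loop.

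At these centres the contact was higher than at the anchor bins. The 3′ to mid-gene loop reached 5.37 ± 0.27 for 1A2, 6.07 ± 0.25 for 1F4, 4.65 ± 0.24 for 1B1 and 2.46 ± 0.22 with cohesin degraded (465, 689, 449 and 142 reads). The mid-gene to upstream loop reached 6.01 ± 0.25, 6.65 ± 0.23, 5.32 ± 0.22 and 2.59 ± 0.20 (632, 887, 635 and 186 reads). The outer loop reached 6.04 ± 0.30, 5.98 ± 0.26, 5.75 ± 0.27 and 3.51 ± 0.28 (428, 536, 462 and 167 reads). Treated over untreated 1B1 gave log2 ratios of -0.92 ± 0.15, -1.04 ± 0.12 and -0.71 ± 0.13. These windows were chosen on the untreated libraries alone, which favours the untreated side. At the highest window of its own the treated library reached 2.46 ± 0.22, 2.71 ± 0.22 and 4.12 ± 0.42 (142, 161 and 116 reads). Against the highest windows of untreated 1B1 the log2 ratios were then -0.92 ± 0.15, -0.97 ± 0.13 and -0.48 ± 0.16. At the windows chosen on the untreated libraries all 3 treated values still exceeded their rings, by 1.74, 1.60 and 1.63 times. In untreated 1B1 these ratios were 2.19, 2.39 and 2.40.

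The untreated clones were less alike at the centres. The inner loops were lower in 1B1 than in 1F4, with log2 ratios of -0.38 ± 0.10 and -0.32 ± 0.08, and lower than in 1A2 with -0.21 ± 0.10 and -0.18 ± 0.08. The outer loop differed by less than its error between any pair of clones, with log2 ratios of -0.07 ± 0.10 for 1B1 over 1A2, -0.06 ± 0.09 for 1B1 over 1F4 and -0.01 ± 0.10 for 1F4 over 1A2. The centres were picked on the mean of the same 3 libraries after the maps had been seen. The clone differences at the inner loops were smaller than the treated difference in the same clone.

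**Figure D2:**
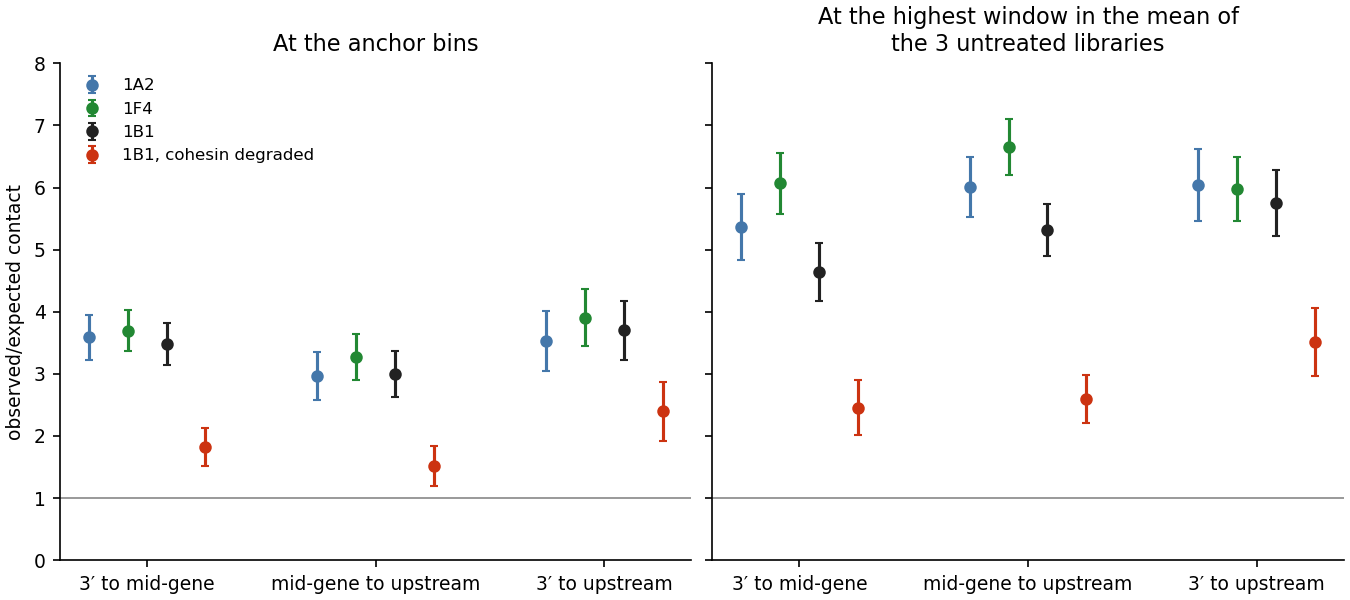
Observed over expected contact of the 3 anchor pairs in each library, at the anchor bins (left) and at the highest window in the mean of the 3 untreated libraries (right). Bars are 95% intervals from counting error only, and the grey line is the expected value of 1. At all 6 positions the cohesin-degraded library, in red, lies below the 3 untreated libraries and above 1.

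Insulation was taken as the log2 of the mean contact across a bin, in a square of 20 by 20 bins, relative to the mean of the region; a low value marks a boundary. At the 3′ anchor it was -0.44 for 1A2, -0.47 for 1F4, -0.38 for 1B1 and 0.13 with cohesin degraded. At the mid-gene anchor it was -0.39, -0.54, -0.37 and 0.14. At the upstream anchor, the strongest of the 3 in every library, it was -0.95, -0.98, -0.92 and -0.36. Counting errors were between 0.02 and 0.03. Insulation had a value at 416 bins of the region. The anchors were chosen as dips in these same libraries, so their rank among those bins is not read.

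With cohesin degraded, insulation was therefore weaker at each anchor, by 0.52 ± 0.03 at the 3′ end, 0.52 ± 0.02 in mid-gene and 0.56 ± 0.03 upstream. The difference over all 416 bins had a median of 0.01 and an SD of 0.28. The anchors were chosen as boundaries, dips of insulation, in these same libraries, which favours a positive difference, so they are not ranked among the bins. The dips themselves were hardly visible inside the gene. In untreated 1B1 the mid-gene anchor lay 1.05 below the highest value on its 3′ side and 1.08 below that on the other side; in the treated library it lay 0.11 and 0.23 below them. The lowest bin within 5 bins was at most 1 bin from the anchor in every untreated library. In the treated library it was 2 bins away at the 3′ end, 4 bins away in mid-gene and 3 bins away upstream.

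Between the anchors insulation formed a pair of arches. In untreated 1B1 it climbed from the 3′ anchor to 0.67 at 121.6 kb, returned to its low in mid-gene, reached 0.70 at 339.2 kb and then dropped to the upstream anchor, a range of 1.62 over the interval. The same range was 1.74 for 1A2, 1.79 for 1F4 and 0.76 with cohesin degraded. Over the 3′ arch alone the treated library ranged over 0.23, against 1.06 to 1.23 in the untreated ones. Most of the range that remained after treatment lay in the fall towards the upstream anchor, with 0.76 over the upstream arch.

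**Figure D3:**
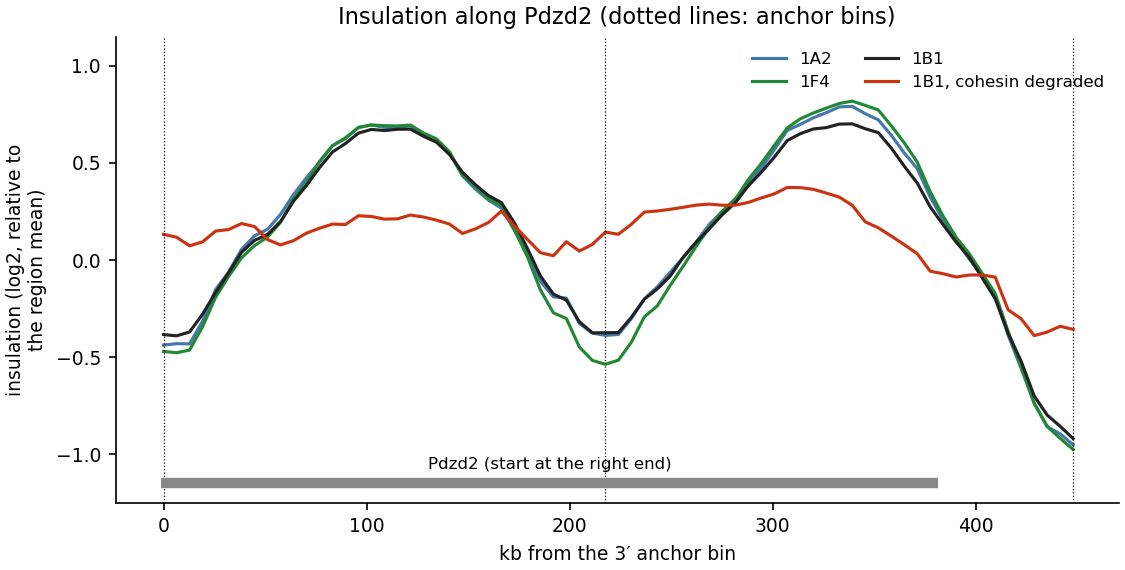
Insulation (log2 of mean contact across each bin, relative to the region mean) against distance from the 3′ anchor bin in kb, 1 line per library; the grey bar is Pdzd2 and dotted lines mark the anchors. The untreated lines form 2 arches that meet at the mid-gene anchor at 217.6 kb, and the treated line stays between -0.39 and 0.37.

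The mid-gene boundary differed between clones. In 1F4 it was lower than in 1A2 by 0.15 ± 0.03 and lower than in 1B1 by 0.16 ± 0.02. Over the 416 bins the difference between 1F4 and 1A2 had an SD of 0.05. The anchor was chosen as a dip in these same libraries, so it is not ranked among the bins. Between 1B1 and 1A2 the mid-gene difference was 0.01 ± 0.03. At the other anchors the untreated clones differed by at most 0.09, the largest being 0.09 ± 0.03 for 1B1 over 1F4 at the 3′ end. What distinguishes 1F4 by its labels, the kept promoters, cannot be told apart from any other property of that clone and library.

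The captured region had 10 boundaries by the same rule, a lowest bin within 10 bins that lay at least 0.3 below the highest value on either side in the mean of 1A2 and 1F4. The 3 anchors were among them. At the other 7 the difference between treated and untreated 1B1 ran from -0.70 to 0.68 with a median of 0.03, and it was above 0 at 5. The 3 differences at Pdzd2 were 0.52, 0.52 and 0.56. Of the other 7, those at chr15:10828801-10835200 (0.57) and chr15:11334401-11340800 (0.68) were larger. The interval was chosen from these same maps, so nothing is read from the place of its anchors in that range.

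Contact inside the interval was compared next between its 2 segments. Within the 3′ segment, between the 3′ and mid-gene anchors, mean observed over expected contact of pairs at least 3 bins apart was 1.51 ± 0.01 for 1A2, 1.54 ± 0.01 for 1F4, 1.48 ± 0.01 for 1B1 and 1.13 ± 0.01 with cohesin degraded. Within the upstream segment it was 1.59 ± 0.01, 1.64 ± 0.01, 1.51 ± 0.01 and 1.21 ± 0.01. Between the segments, that is across the mid-gene anchor, it was 1.36 ± 0.01, 1.30 ± 0.01, 1.35 ± 0.01 and 1.52 ± 0.02. Relative to the expected value, the contact across the mid-gene anchor was thus highest in the treated library, and the contact within either segment lowest.

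As log2 ratios of treated over untreated 1B1 these were -0.39 ± 0.02 in the 3′ segment, -0.32 ± 0.02 in the upstream segment and 0.17 ± 0.02 across. The direction of the last depended on the scale. Without division by the expected value, as a share of the balanced contact of the region, the log2 ratios were -0.33 ± 0.02, -0.31 ± 0.02 and -0.28 ± 0.02, so that contact across the mid-gene anchor was lower after treatment too. On the relative scale, contact within segments over contact between them was 1.14 ± 0.01 for 1A2, 1.23 ± 0.01 for 1F4, 1.11 ± 0.01 for 1B1 and 0.771 ± 0.010 with cohesin degraded. The untreated clones differed here by more than counting error, 1F4 having the highest ratio, but each was above 1 and the treated library was below it.

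Windows of 3 by 3 bins at least 6 bins apart showed how these differences were spread. Of the 2016 windows in the interval, 180 were at least 1.5-fold lower and 179 at least 1.5-fold higher with cohesin degraded than in untreated 1B1. Over the 27040 windows of the region at the same separations, 11.4% were lower and 15.8% higher by that measure, and in the interval 8.93% and 8.88%. For lower windows the order of interval and region depended on the setting: with at least 30 reads the region had 8.42%, and at the lower alternative fold the interval had 25.9% and the region 23.1%. The rule for the interval used these same maps, and nothing is read from these shares about the interval as such. Of 406 windows in the 3′ segment 84 were lower (20.7%) and 0 higher, and of 465 in the upstream segment 81 were lower (17.4%) and 1 higher. Of the 1145 windows across the mid-gene anchor 15 were lower (1.31%) and 178 higher (15.5%), the latter a share near that of the region.

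The median log2 ratio of the windows was -0.37 in the 3′ segment, -0.29 in the upstream segment and 0.28 across the mid-gene anchor, and -0.02 over the whole interval. In the map of the log2 ratios the lowest windows lay towards the corners where anchors meet. The higher ones lay in a block that joined the inner part of the 3′ segment to the inner part of the upstream segment. In the treated library 12 windows exceeded 3 times the expected contact, against 68 in untreated 1B1, 81 for 1A2 and 88 for 1F4. Windows below the expected value were also fewer, 293 against 471, 451 and 529. The interval was chosen for spots and boundaries in these same maps, which favours fewer such windows after treatment. No share over the region is set beside these counts, so nothing is read from them about the interval as such.

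**Figure D4:**
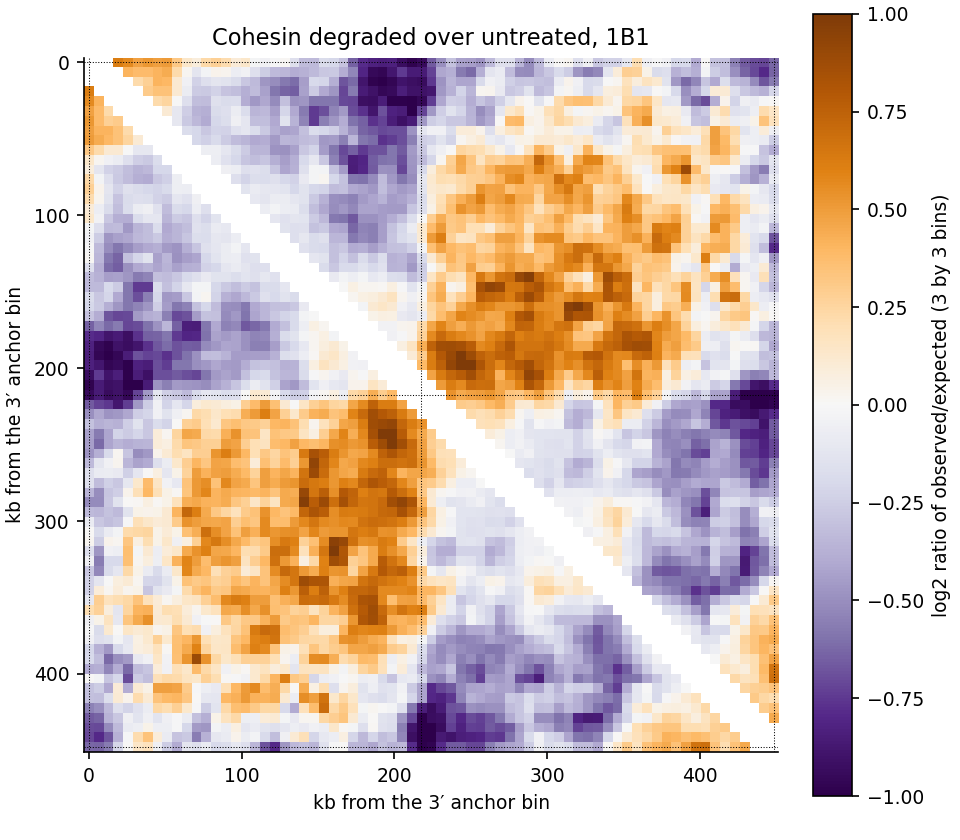
Log2 ratio of observed over expected contact in cohesin-degraded over untreated 1B1 (windows of 3 by 3 bins), by distance from the 3′ anchor bin in kb; purple is lower and orange higher relative to the expected value after treatment, and dotted lines mark the anchors. Purple covers most of the squares within either segment, and orange covers most of the square that crosses the mid-gene anchor, where 178 of 1145 windows (15.5%, against 15.8% of the region) were at least 1.5-fold higher.

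Between untreated clones few windows passed the same fold. For 1B1 over 1A2, 3 windows of the interval were lower (0.149%) and 1 higher (0.0496%), where the region had 2.55% and 4.49%. For 1B1 over 1F4, 0 were lower and 7 higher (0.347%), where the region had 2.23% and 5.14%. For 1F4 over 1A2, 14 were lower (0.694%) and 4 higher (0.198%), where the region had 3.93% and 2.47%. With at least 30 reads the interval counts were the same. The region then had 1.41% and 2.33%, 1.48% and 2.70%, and 1.90% and 1.23% for these contrasts in turn. A larger share of the region's windows lay at long separations, where reads are few. Interval and region are therefore not compared in these shares. All of these windows lay across the mid-gene anchor, none within a segment. That part holds 1145 of the 2016 windows and all the longest separations, where reads per window are fewest. Nothing is therefore read from where these windows lay.

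Contact decayed more slowly with distance inside the interval than in the rest of the region. From 20 to 400 kb the slope of log contact on log separation inside the interval was -0.55 ± 0.01 for 1A2, -0.57 ± 0.01 for 1F4, -0.53 ± 0.01 for 1B1 and -0.74 ± 0.01 with cohesin degraded. In the rest of the region it was -0.83, -0.84, -0.81 and -1.05, each with an error below 0.01. Treated minus untreated 1B1 was -0.21 ± 0.01 inside and -0.25 ± 0.0046 outside. The decay was thus steeper after treatment on either side, and the interval was less steep than its surroundings in all 4 libraries. The interval was chosen for contacts that join anchors 217.6, 230.4 and 448 kb apart in these same maps. That choice favours a slower decay inside it, so nothing is read from this difference from the surroundings.

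The excess of the interval over its surroundings grew with distance. At 25 to 100 kb mean balanced contact in the interval was 1.12 times that of the rest in 1A2 and 1F4, 1.10 times in 1B1 and 1.05 times with cohesin degraded. At 100 to 200 kb the ratios were 1.62, 1.60, 1.56 and 1.36. At 200 to 300 kb they were 1.75, 1.71, 1.73 and 1.70, with errors of 0.02 to 0.03. At 300 to 450 kb they were 2.19, 2.21, 2.114 and 2.05, with errors of 0.04 to 0.05. The treated library was lowest in all 4 bands. Beyond 200 kb it differed from untreated 1B1 by less than 1.96 counting errors, but at 300 to 450 kb it was below 1A2 and 1F4 by more than that. Pairs of the interval at 300 to 450 kb can join only its outer parts, among them the chosen outer loop. The growth of the excess with distance is thus favoured by the choice of the interval, and nothing is read from it.

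**Figure D5:**
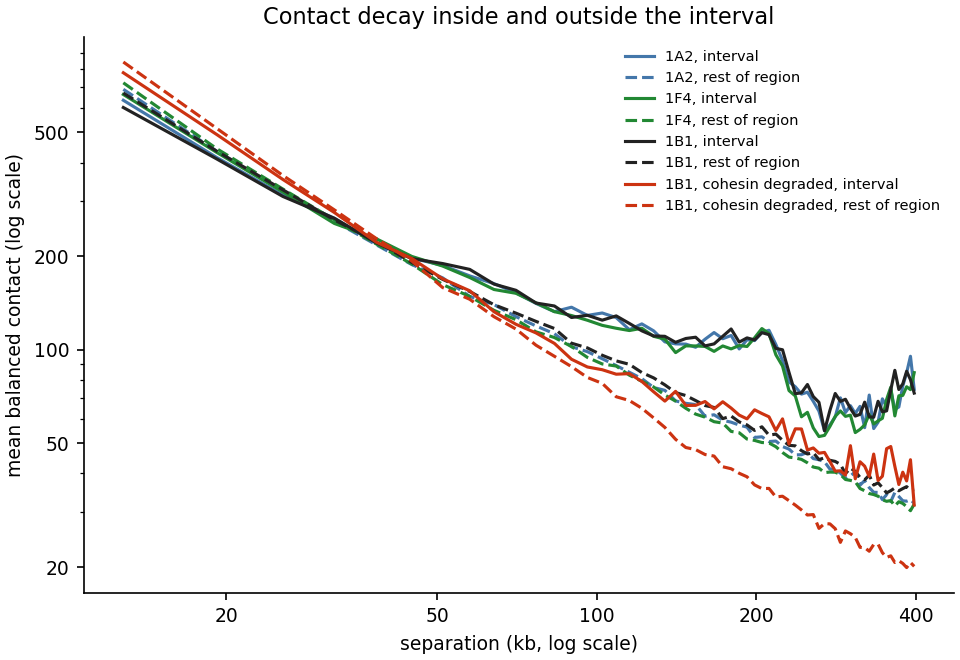
Mean balanced contact against separation from 12.8 to 400 kb, both on log scales, for bin pairs inside the interval (solid lines) and in the rest of the chromosome 15 region (dashed lines), 1 colour per library. Untreated solid lines have a shoulder near 200 kb, the spacing of neighbouring anchors, and both red lines fall below the untreated lines of the same kind beyond 50 kb.

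Stripes were compared by the contact of each anchor bin and its neighbours with bins 38.4 to 192 kb away on either side. The upstream anchor had more contact towards Pdzd2 than away from it: observed over expected was 1.08 ± 0.03 and 0.80 ± 0.03 for 1A2, 1.05 ± 0.03 and 0.72 ± 0.02 for 1F4 and 1.06 ± 0.03 and 0.73 ± 0.02 for 1B1. With cohesin degraded the order was the other way, 0.998 ± 0.031 towards the gene and 1.14 ± 0.03 away from it. The difference lay mainly on the outer side, which held 1329 reads in untreated and 2053 reads in treated 1B1. With bins out to 128 kb only, the untreated sign was the other way too, with log2 ratios of outer over inner contact of 0.24, 0.13 and 0.12 for 1A2, 1F4 and 1B1.

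The mid-gene anchor had nearly even sides in the untreated libraries, with log2 ratios of the start side over the 3′ side of -0.06 ± 0.05 for 1A2, -0.09 ± 0.05 for 1F4 and -0.17 ± 0.05 for 1B1, and 0.20 ± 0.06 with cohesin degraded. With bins out to 128 kb these were 0.14, 0.07 and 0.09 in the untreated libraries. At the 3′ anchor the side within Pdzd2 had slightly less contact than the Golph3 side in all libraries, with log2 ratios of -0.08 ± 0.05, -0.19 ± 0.04, -0.13 ± 0.05 and -0.20 ± 0.05. In unbalanced reads the 3′ anchor had ratios of 0.09, 0.00, 0.02 and 0.02, so its sign differed between balanced and unbalanced maps.

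Many contacts of the anchors with the other boundaries of the region spanned long separations on few reads. Examples are 0.21 ± 0.15 on 2 reads (upstream anchor, 1A2) and 1.86 ± 0.58 on 11 reads (mid-gene anchor, 1F4). Such values are too imprecise to be set against the expected value. The upstream anchor contacted the next boundary beyond it (chr15:12851201-12857600), 115.2 kb away and outside the interval, at 0.82 ± 0.07 times the expected rate in 1A2, 0.70 ± 0.06 times in 1F4 and 0.75 ± 0.07 times in 1B1, and 1.42 ± 0.09 times with cohesin degraded (146, 155, 138 and 250 reads). This was the opposite of the loops within the interval. The log2 ratio of treated over untreated 1B1 was 0.92 ± 0.16.

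A boundary on the far side of Golph3 (chr15:12044801-12051200) contacted the upstream anchor, 691.2 kb away, at 1.73 ± 0.26 times the expected rate in 1A2, 2.87 ± 0.32 times in 1F4, 2.71 ± 0.30 times in 1B1 and 2.55 ± 0.35 times with cohesin degraded. These values rested on 54, 93, 93 and 62 reads, and the treated and untreated values of 1B1 differed by less than their errors. The same boundary contacted the 3′ anchor, 243.2 kb away, 1.08 ± 0.10, 1.17 ± 0.10, 1.02 ± 0.09 and 1.56 ± 0.15 times, the treated library being highest.

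The start of Pdzd2 at 12669679 was inside the upstream segment and was not one of the 3 anchors. Insulation there was 0.32 for 1A2, 0.35 for 1F4, 0.27 for 1B1 and -0.06 with cohesin degraded. Contact of the start with the mid-gene anchor was 1.82 ± 0.11, 1.82 ± 0.10, 1.58 ± 0.10 and 1.55 ± 0.12 times the expected value. Contact with the 3′ anchor was 1.92 ± 0.14, 1.77 ± 0.12, 1.76 ± 0.12 and 1.71 ± 0.16. At these anchor bins the treated and untreated values of 1B1 differed by less than their counting errors. With the 3′ centre of the first loop, 2 bins inwards, the start had contact of 2.37 ± 0.19, 2.43 ± 0.18, 2.12 ± 0.17 and 1.92 ± 0.21. Just beside the mid-gene anchor they lay further apart: contact of the start with the bin 1 step towards it was 2.05 ± 0.11, 2.24 ± 0.11, 1.88 ± 0.10 and 1.58 ± 0.11, and 2 steps towards it 2.109 ± 0.109, 2.39 ± 0.11, 1.99 ± 0.10 and 1.46 ± 0.10.

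With the upstream anchor, only 69.5 kb away, the start had less contact than expected in untreated cells, 0.74 ± 0.05 for 1A2, 0.70 ± 0.04 for 1F4 and 0.76 ± 0.05 for 1B1, and 1.04 ± 0.06 with cohesin degraded. Averaged over the gene side of the upstream segment the contact of the start was 1.66 ± 0.03, 1.80 ± 0.03, 1.58 ± 0.03 and 1.16 ± 0.03. Over the 3′ segment, which lies beyond the mid-gene anchor, it was 1.55 ± 0.04, 1.44 ± 0.03, 1.503 ± 0.036 and 1.79 ± 0.05. Relative to the expected value, the start thus contacted the near part of the gene less and the far part more in the treated library. Without division by the expected value it contacted both less, with log2 ratios of treated over untreated 1B1 of -0.63 ± 0.04 for the near part and -0.40 ± 0.05 for the far part.

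Across the whole gene these differences nearly cancelled on the relative scale. Mean observed over expected contact within Pdzd2, over its 61 bins and pairs at least 3 bins apart, was 1.27 for 1A2, 1.26 for 1F4, 1.27 for 1B1 and 1.26 with cohesin degraded. The log2 ratio of treated over untreated 1B1 was -0.01 ± 0.01, and -0.22 ± 0.01 without division by the expected value. Over the interval, which also holds the stretch up to the upstream anchor, the mean was 1.46, 1.46, 1.43 and 1.35, each with an error of 0.01.

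Among the 20 protein-coding genes that span at least 10 bins of the captured regions, the log2 ratio of treated over untreated 1B1 had a median of 0.01 and was below 0 in 10. By within-gene contact in untreated 1B1 Pdzd2 was in place 9 of the 20. The genes with within-gene contact most like that of Pdzd2 over the 4 libraries were Mtmr12, a myotubularin-related protein without phosphatase activity, Ttc23l, a tetratricopeptide-repeat protein, and Adamts12, a secreted metalloprotease. Their Euclidean distances from Pdzd2 in log2 contact were 0.06, 0.10 and 0.13. Adamts12, the longest of them with 45 bins, had values of 1.21, 1.22, 1.19 and 1.246. Mtmr12 and Ttc23l span only 11 and 10 bins, so their values come from shorter separations than most of those in Pdzd2.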

How the data were processed

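Contact maps of 4 tiled Capture-C libraries were used, 1 for each of 1A2, 1F4, 1B1 and cohesin-degraded 1B1. The authors digested cross-linked chromatin with MboI, captured the target regions and processed read pairs with HiC-Pro 2.11.4 on mm9. Their maps were balanced by iterative correction and hold the unique valid pairs inside those regions. The deposited values are balanced contact signal per pair of 6.4-kb bins, which sums to between 14999992 and 15000019 per library, and the deposited bin table gives the position of each bin. The members and lists were chosen with earlier results of these data known.

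Each balanced value is a whole number of reads times a factor for either bin. These factors were solved from bin pairs with few reads, and all values came out whole within 0.05. Counting errors are Poisson errors of these reads carried through the factors, and 95% intervals are 1.96 times the error. Reads carry no molecular identifiers, so errors cover counting only. Total reads were between 3214144 and 4089968 per library. Expected contact was the mean per separation over the 456 bins of the chromosome 15 region of that library. Analyses used Python 3.11.15, numpy 2.4.6 and pandas 2.3.3, and scripts were tested on simulated data with planted contacts. Gene positions were from GENCODE vM1 on NCBIM37, whose chromosome 15 has the length of that in the bin table.

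Named genes were Pdzd2, protein-coding genes that overlap the interval or start nearest to an anchor, and the 3 long genes nearest to Pdzd2 in within-gene contact. With 1 library per group a window was called at 1.5-fold. Alternatives were the window size, the position of the window, the expected value, the size of the insulation square, the range of separations, the fold and the use of unbalanced reads; equal depth, windows at the spot centres, segment contact without division by the expected value and the CTCF core consensus were added after the data had been seen.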

Additional observations from a re-analysis of the deposited data

How the results depend on the processing

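Of 421 alternative values for 88 results, 264 lay within 1.96 counting errors of the reported value (counts within 1.5 times), 147 moved further and 10 changed the sign of a value larger than 1.96 times its counting error. In 31 further cases, counted with the others above, a smaller value changed sign: 19 contact, 4 insulation and 4 segment differences and 4 stripe asymmetries. Of the 70 alternatives for the 13 treated-over-untreated results in 1B1, 1 changed sign and 25 moved. The sign change was of contact across the mid-gene anchor, 0.17 relative to the expected value and -0.28 without division by it, where the 3′ segment had -0.33 and contact within Pdzd2 -0.22. Without division by the expected value the 3 anchor contacts had log2 ratios of -1.60, -1.63 and -1.26, and this setting keeps the steeper decay of the treated library. The bin pair alone, on few reads, gave -2.85 for the mid-gene to upstream pair and -0.16 for the outer pair. Squares of 10 bins moved the insulation difference to 0.59 at the 3′ end and 0.65 in mid-gene, and squares of 30 bins to 0.36, 0.32 and 0.46 at the 3 anchors. Unbalanced reads gave 0.45 at the 3′ end and 0.47 in mid-gene, and the lowest bin within 5 bins gave 0.40 in mid-gene. The slope difference was -0.34 at 20 to 200 kb and -0.16 at 50 to 400 kb. Pairs at least 10 bins apart gave -0.53 and -0.42 within the 3′ and upstream segments, and unbalanced reads -0.38 in the upstream one. Windows lower numbered 523 at the lower alternative fold, 7 at 2-fold and 107 with 5 by 5 bins, 25.9%, 0.347% and 5.66% of the interval against 23.1%, 3.14% and 9.13% of the region. Windows higher numbered 542 and 4 at these folds in turn, 26.9% and 0.198% against 29.4% and 3.86%.

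Of the other 9 sign changes of larger values, 2 were of clone differences without division by the expected value, 0.0099 for 1B1 over 1F4 in the 3′ segment and 0.0023 for 1B1 over 1A2 in the upstream segment, and 7 were of stripe asymmetries: at the 3′ anchor in unbalanced reads (0.0030 in 1F4, 0.019 in 1B1 and 0.018 in cohesin-degraded 1B1), and with bins out to 128 kb at the mid-gene anchor in 1B1 (0.092) and at the upstream anchor (0.24 in 1A2, 0.13 in 1F4 and 0.12 in 1B1). The causes of these changes were not tested. No paired analysis was possible because each group has 1 library, all with replicate number 1. The anchor windows of the treated library held only 96 to 142 reads, which limited precision there. Its total of 3622612 reads exceeded the 3234581 of untreated 1B1. Between untreated clones, whose anchor windows held 237 to 499 reads, a difference below about 0.2 to 0.3 on the log2 scale was not detectable.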
